A study of Mus musculus with 4 samples.

Results

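The genes described here are 40 mouse genes of protein folding in the endoplasmic reticulum (ER) and of the unfolded protein response. They were taken from a list of symbols, matched to the Ensembl identifiers of the count tables, and are 40 of 41388 listed genes. Expression was measured by RNA-seq of ribosome-depleted total RNA from Mnk3 cells, a mouse line with features of group 3 innate lymphoid cells (ILC3), the lymphocytes of barrier tissues that secrete IL-22 and IL-17. There were 2 libraries of stimulated cells, which had received IL-1b and IL-23 together, each at 10 ng/ml, for about 16 h, and 2 libraries of control cells, which had received neither cytokine. Both groups are the same cell line, and the labels name no genotype, passage or culture. In each group library 1 is the one whose title carries rep1, and library 2 is the one whose title carries no number. Whether the libraries of one group were grown separately is not stated, so the p-values describe no more than the spread among these 4 libraries, and that spread may be technical.

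The ER is where secreted and membrane proteins enter the secretory pathway, receive N-linked glycans and disulfide bonds, and fold with the help of chaperones. When unfolded proteins build up in it, the membrane sensors IRE1, ATF6 and PERK start the unfolded protein response, a programme known for raising the genes of folding, glycosylation and degradation. ATF6 and the spliced form of XBP1, the transcription factor made through IRE1, act on these genes through short promoter elements, while PERK slows translation and favours that of ATF4. Plasma cells and other secretory cells are known for high levels of this programme.

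Promoter sequences are shown first, because several of the genes that turned out to be higher in stimulated cells carry the same element near their starts. The ER stress response element (ERSE) was searched as CCAAT and CCACG with 9 bases of any kind between them, and ERSE-II as ATTGG and CCACG with 1 base between them, both on either strand, in RefSeq promoter windows of GRCm38.p6 that run from 250 bases before to 50 bases after the annotated start. Each line gives the gene, the position, the strand and the gene-strand sequence from 5′ to 3′, with the element in capitals and 5 bases on each side. Where the element lies on the opposite strand, its letters appear here as their reverse complement. Genes higher in stimulated cells come first, then Dnajc3, which was lower, and then Syvn1, Derl3 and Herpud1, which did not pass the test.
Calr, ERSE, chr8:84847070-84847098, minus strand: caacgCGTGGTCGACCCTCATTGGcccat
Hspa5, ERSE, chr2:34772020-34772048, plus strand: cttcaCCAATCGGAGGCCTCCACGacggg
Pdia6, ERSE, chr12:17266486-17266514, plus strand: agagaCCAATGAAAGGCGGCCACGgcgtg
Creld2, ERSE, chr15:88819515-88819543, plus strand: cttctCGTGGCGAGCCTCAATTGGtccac
Hsp90b1, first ERSE, chr10:86705633-86705661, minus strand: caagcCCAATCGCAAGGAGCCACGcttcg
Hsp90b1, second ERSE, chr10:86705528-86705556, minus strand: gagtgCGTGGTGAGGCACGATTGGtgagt
Canx, ERSE, chr11:50325795-50325823, minus strand: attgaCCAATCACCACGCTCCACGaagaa
Dnajb11, ERSE-II, chr16:22857847-22857867, plus strand: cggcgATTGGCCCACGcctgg
Dnajc3, ERSE, chr14:118937822-118937850, plus strand: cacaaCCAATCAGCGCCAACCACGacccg
Syvn1, ERSE, chr19:6046527-6046555, plus strand: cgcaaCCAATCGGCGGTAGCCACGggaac
Derl3, ERSE, chr10:75893237-75893265, plus strand: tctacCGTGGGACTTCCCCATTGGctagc
Herpud1, ERSE-II, chr8:94386372-94386392, plus strand: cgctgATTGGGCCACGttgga

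RefSeq windows were found by symbol for 31 of the 40 genes, and for 28 of these the annotated start lay within 100 bases of the 5′ end listed in the count tables. Derl2 had a second window, whose start lies 538 bases from its listed 5′ end. A gene was counted if any of its windows matched, while the shares of all windows count each window. The listed 5′ end of Hspa5 lies 120 bases upstream of the RefSeq start, so its ERSE falls inside the gene as the tables list it. ERSE was present for 9 of the 31 genes (29.0%), against 39 of all 32851 windows in the table (0.119%). ERSE-II was present in 2 of 31 (6.45%), against 12 of all windows (0.037%). The letters of ERSE were first defined on promoters of ER chaperone genes such as these, so the high share among them is not independent evidence. The parts of the element were common everywhere. CCAAT, the Y box, was found for 25 of the 31 genes (80.6%) and in 37.4% of all windows. CCACG, the 3′ part, was found for 25 of 31 genes (80.6%) and in 32.8% of all windows. Derl2 had these parts only in its second window. Every ERSE contains both parts, so these counts overlap. The XBP1-binding core TGACGTG was found only in the Hspa5 window among these 31, against 2.01% of all windows, and the ATF4 composite core TTGCATCA only in that of Herpud1, against 0.895% of all windows. A match shows that the letters are present, not that a factor binds there.

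**Figure D1:**
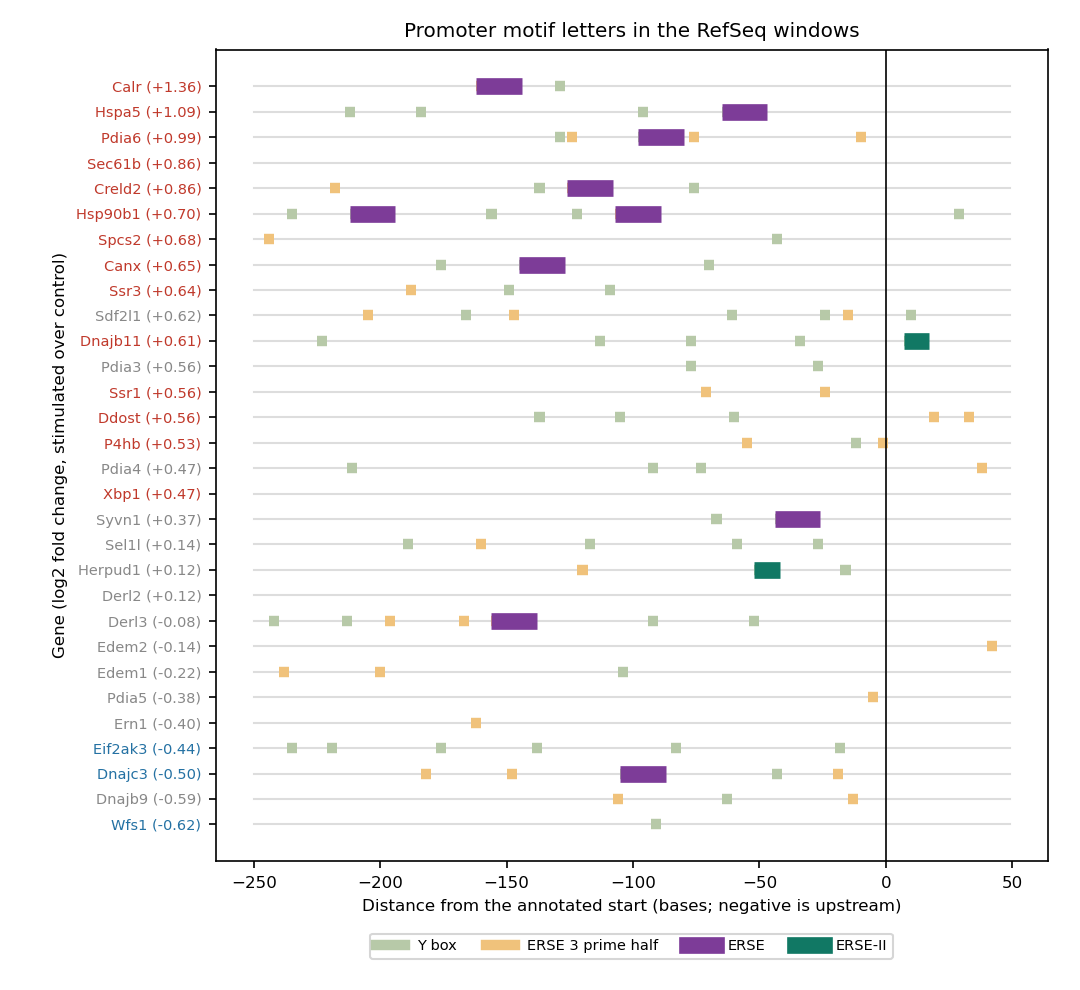
Positions of the motif letters in the RefSeq windows of the tested genes, one line per gene, with distance from the annotated start in bases on the horizontal axis and the log2 fold change of stimulated over control in brackets. Purple bars are ERSE, dark green bars ERSE-II and pale marks their parts, and gene names are red where higher, blue where lower and grey where not past an edgeR adjusted p of 0.05. ERSE marks 6 genes that were higher, 1 that was lower (Dnajc3) and 2 that did not pass (Syvn1 and Derl3). For Derl2 only the window nearest its listed 5′ end is drawn.

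Levels are given as CPM, counts scaled to library size with TMM factors, and means carry the SD of n = 2 libraries per group. Changes are on the log2 scale, stimulated over control, with the SE of the edgeR quasi-likelihood test. A change passed the test at an adjusted p under 0.05, with the Benjamini-Hochberg adjustment taken over all 13838 genes tested. Summed counts were 23047723 to 26723058 in the stimulated libraries and 28516816 to 29078765 in the control libraries. All 10 markers of the ILC3 list passed the filter on low counts. Of 10 B and plasma cell markers 6 were at or under 1 CPM in every library, among them Jchain and Mzb1. The summed level of the B and plasma cell markers was 39.1 and 65.7 CPM in the stimulated libraries and 423 and 625 CPM in the control libraries, and most of it was Sdc1. Myeloid markers summed to 29.9 and 42.9 CPM in the stimulated libraries and 144.9 and 142 CPM in the control libraries. Most of this was Fcgr3, at 25.6 and 31.0 CPM in stimulated and 142.1 and 138.1 CPM in control libraries. Adgre1 went the other way, with 1.74 and 8.19 CPM in stimulated and 0.0664 and 0 CPM in control libraries. Lyz2, S100a8, S100a9 and C1qa were at 0 in all 4. T cell markers summed to 28.4 and 24.8 CPM in the stimulated libraries and 36.1 and 47.0 CPM in the control libraries, with 4 of 8 at or under 1 CPM throughout and Cd8b1 at 0. Stromal markers summed to 85.9 and 32.9 CPM in the stimulated libraries, nearly all of it Lum, and to 7.83 and 8.74 CPM in the control libraries. Epithelial and endothelial markers, mostly Pecam1, summed to 41.7 and 30.6 CPM in the stimulated libraries and 26.6 and 20.7 CPM in the control libraries. The part of these markers in the results was not tested, and in bulk RNA fewer cells of a type and less RNA per cell cannot be told apart.

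Among these 40 genes, most of those that fold or import proteins, and both of N-glycan transfer, were higher in stimulated cells. The 8 that remove misfolded proteins did not pass the test, and the sensor genes were split. In wider lists given below, smaller shares rose for import (5 of 18) and for the oligosaccharyltransferase (2 of 10). Among 22 other degradation genes, 2 rose and 5 fell. Of the 40 genes, 39 were tested, 20 rose, 3 fell and 16 did not pass. Among all 13838 genes tested, 17.5% were higher and 18.3% lower, 35.8% in all. The 20 genes are 51.3% of those tested and the 3 are 7.69%. The shares over all genes are also the background for the counts by role and by list below. The median log2 fold change of the 39 genes was 0.55, with a range of -0.62 to 1.36, against a median of -0.016 over all genes tested, where the 25th and 75th percentiles were -0.52 and 0.45. Increases were moderate, from 1.38-fold for Xbp1 to 2.57-fold for Calr. Both stimulated libraries lay above both controls for 22 genes and below both for 5, against 34.4% and 36.3% of all genes tested. Together the 40 genes took 1.251% and 1.26% of all counts in stimulated libraries 1 and 2 (95% Wilson intervals 1.247 to 1.255 and 1.256 to 1.265), against 0.8055% and 0.9056% in control libraries 1 and 2 (0.8022 to 0.8087 and 0.9022 to 0.9091). Intervals cover counting error only.

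Fewer genes passed when a single library was left out. Without stimulated 1, 9 genes were higher and 0 lower, and without control 1, 11 were higher and 1 was lower, against 20 and 3 with all libraries. Without stimulated 2 the counts were 17 and 0, and without control 2 they were 16 and 0. Over all genes the shares called in these fits were lower too, at 11% higher and 11.5% lower without stimulated 1, and at 13.3% and 13.9% without control 1. Among the 23 genes that passed, 8 did so without each library in turn, namely Calr, Hspa5, Hyou1, Manf, Creld2, Pdia6, Ssr2 and Ostc. None of the 23 changed sign in any of the 14 alternative settings run. With total-count scaling, which moves the median change of all genes to -0.11, 14 of the 39 genes were higher and 3 lower, against 14.0% and 20.2% of all genes.

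**Figure D2:**
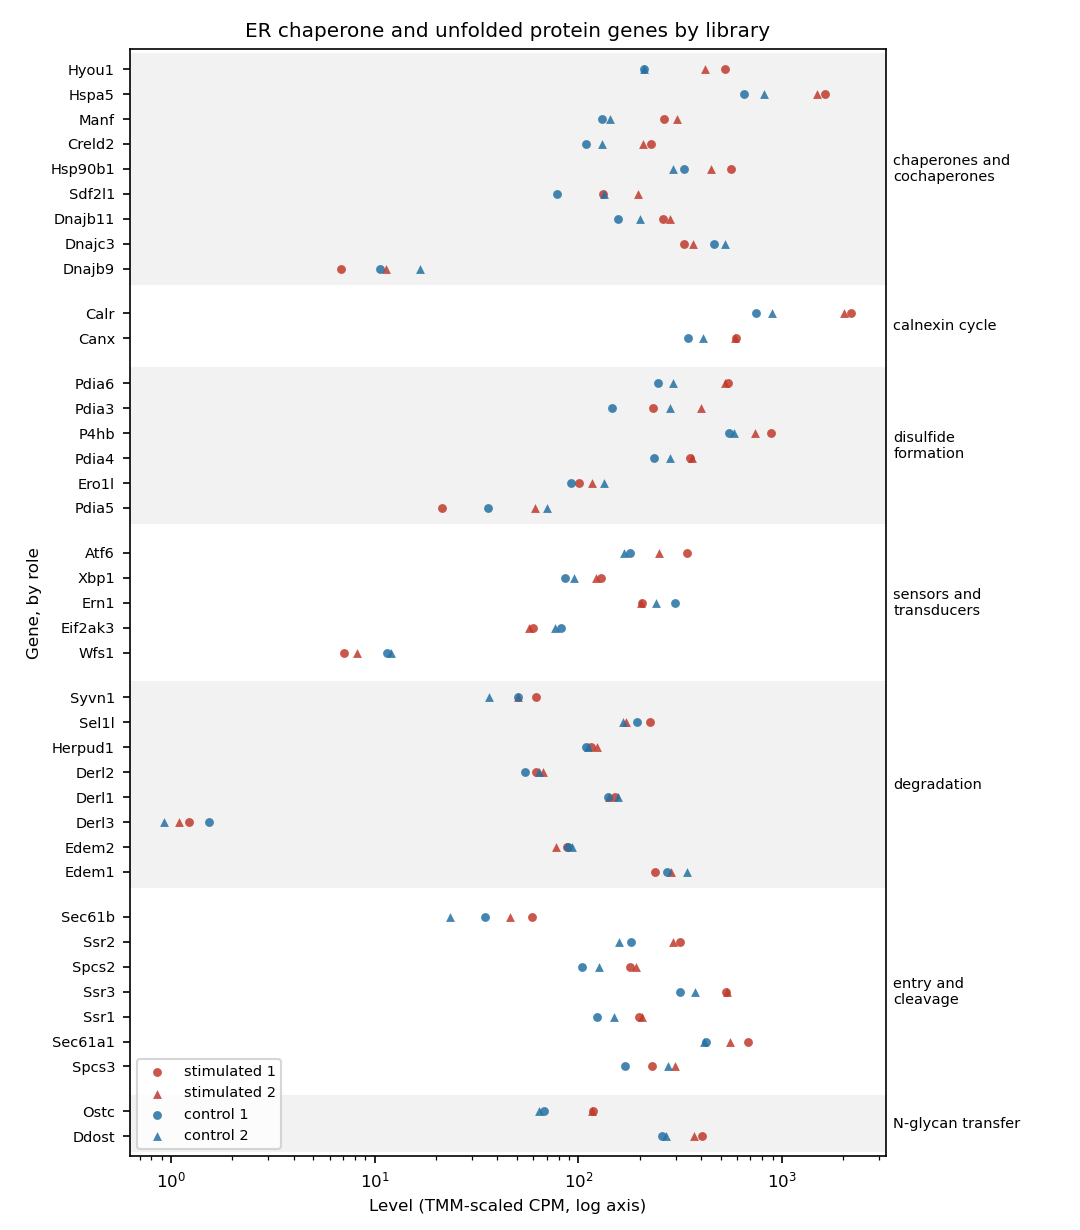
Level of each of the 39 tested genes in each library, in TMM-scaled CPM on a log axis, grouped by role, with red symbols for stimulated libraries, blue symbols for control libraries, circles for library 1 and triangles for library 2. Calr and Hspa5 lie furthest to the right, with both stimulated libraries above both controls, and the symbols of the degradation genes lie close together.

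Lumenal chaperones and their cochaperones rose for the most part, with 6 of 9 higher and 1 lower and a median change of 0.70. Hspa5 encodes BiP, the HSP70 chaperone of the ER and the protein that holds the stress sensors inactive. The count tables place it on the plus strand of chromosome 2, with start 34771970 and end 34776531, and its level was 1622 and 1490 CPM in stimulated libraries 1 and 2, against 648 and 814 CPM in control libraries 1 and 2. Its change was 1.09 ± 0.18 (edgeR adjusted p = 0.00441). Hyou1, the large HSP70-like protein that exchanges nucleotide on BiP, had 527 and 420.4 CPM in the stimulated libraries and 210.4 and 211 CPM in the control libraries. It rose by 1.17 ± 0.16 (edgeR adjusted p = 0.00247), and the controls nearly coincided. Manf, an ER protein that binds BiP and can be secreted, had 262 and 306 CPM with the cytokines against 131 and 143 CPM without them, a change of 1.05 ± 0.15 (edgeR adjusted p = 0.00266). Its listed exons overlap those of Rbm15b on the same strand and of Dcaf1 on the opposite strand. Summed over the 2 libraries of a group, Rbm15b had 11057 counts in stimulated and 11865 in control libraries, Dcaf1 9950 and 9034, and Manf 13626 and 8135. The rule by which reads in shared stretches were assigned is not stated.

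Creld2, an ER-stress-inducible protein of the calcium-binding EGF-like class, had 227 and 209 CPM in stimulated libraries 1 and 2 and 109.6 and 131 CPM in control libraries 1 and 2, and changed by 0.86 ± 0.15 (edgeR adjusted p = 0.00588). Hsp90b1, which encodes GRP94, the HSP90 chaperone of the ER, had 562 and 448 CPM after stimulation against 331 and 289.9 CPM in controls. Its change was 0.70 ± 0.17 (edgeR adjusted p = 0.0193), and the call ended without stimulated 1 (edgeR adjusted p = 0.101) or control 2 (edgeR adjusted p = 0.0664). Dnajb11, the cochaperone ERdj3 that hands clients to BiP, had 261 and 282 CPM in stimulated cells and 156 and 200.1 CPM in control cells. The change of Dnajb11 was 0.61 ± 0.17 (edgeR adjusted p = 0.0289), and its call ended without stimulated 1, stimulated 2 or control 1 (edgeR adjusted p = 0.0552, 0.0811 and 0.132) and with total-count scaling (edgeR adjusted p = 0.0578). Sdf2l1, a partner of ERdj3, overlapped between groups, with 131 and 196 CPM in stimulated and 78.6 and 134 CPM in control libraries, a change of 0.62 ± 0.32 (edgeR adjusted p = 0.187). It passed in 3 of the 14 alternative settings, among them the fit without control 2, where its change was 1.06 (edgeR adjusted p = 0.018).

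Not every cochaperone of BiP was higher. Dnajc3, the cochaperone p58IPK, which is also known to inhibit PERK, fell to 329 and 367 CPM in the stimulated libraries, against 464 and 523 CPM in the control libraries. It carries an ERSE like Hspa5, and its change was -0.50 ± 0.15 (edgeR adjusted p = 0.0397). The call ended without stimulated 1, stimulated 2 or control 2 (edgeR adjusted p = 0.196, 0.0858 and 0.158). Dnajb9, the cochaperone ERdj4 known to keep IRE1 inactive, was a scarce transcript with 6.85 and 11.3 CPM in stimulated and 10.6 and 16.6 CPM in control libraries. Its groups overlapped and it did not pass (-0.59 ± 0.32, edgeR adjusted p = 0.204).

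Both lectin chaperones of the calnexin cycle, which hold glycoproteins until they are folded, rose. Calr, which encodes calreticulin, the soluble lectin and a calcium store of the ER, had the highest level per length and the largest increase of the 39 tested genes. The count tables place it on the minus strand of chromosome 8, with start 84841850 and end 84846934, and it had 2187 and 2022 CPM in stimulated libraries 1 and 2, against 742 and 895 CPM in control libraries 1 and 2. The groups were far apart, the change was 1.36 ± 0.17 (edgeR adjusted p = 0.00179), and the mean level was 731 RPKM in stimulated and 284 RPKM in control cells. Canx, which encodes the membrane-bound calnexin, had 591 and 589 CPM with cytokines against 343 and 410.4 CPM in controls, a change of 0.65 ± 0.16 (edgeR adjusted p = 0.0184). Its call ended without stimulated 1 (edgeR adjusted p = 0.0577) or control 1 (edgeR adjusted p = 0.0906).

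Among the 6 genes of disulfide formation, 2 rose and 4 did not pass, with a median change of 0.50. Pdia6, a protein disulfide isomerase known to associate with BiP, had 543 and 524 CPM in the stimulated libraries against 247 and 291 CPM in the control libraries, a change of 0.99 ± 0.15 (edgeR adjusted p = 0.00363). P4hb, the classical protein disulfide isomerase, had 884 and 739.9 CPM after stimulation and 546 and 578 CPM in controls. It rose by 0.53 ± 0.16 (edgeR adjusted p = 0.0409), and this call was lost without stimulated 1, control 1 or control 2 (edgeR adjusted p = 0.215, 0.139 and 0.0894) and with total-count scaling (edgeR adjusted p = 0.0578). Pdia4 was just outside the threshold: both stimulated libraries (354 and 361 CPM) lay above both controls (235 and 281 CPM), and its change was 0.47 ± 0.15 (edgeR adjusted p = 0.0501). It passed in 7 of the 14 alternative settings. Pdia3, the isomerase that works with calnexin and calreticulin, had 231 and 402 CPM in stimulated libraries 1 and 2 and 146 and 283 CPM in control libraries 1 and 2. The spread within each group exceeded the difference between them (0.56 ± 0.42, edgeR adjusted p = 0.362). By library number, its change was 0.67 in libraries 1 and 0.51 in libraries 2, though the titles establish no pairs. Pdia5 was spread more widely still, at 21.3 and 60.9 CPM in stimulated and 36.2 and 70.4 CPM in control libraries (-0.38 ± 0.68, edgeR adjusted p = 0.718). Its change was 0.19 without stimulated 1, -1.30 without stimulated 2 and 0.18 without control 2, so its sign varied among these fits. By library number, with the same limit, the change of Pdia5 was -0.76 in libraries 1 and -0.21 in libraries 2. Ero1l, the oxidase that recharges these isomerases, had 101 and 117 CPM in stimulated and 91.7 and 133 CPM in control cells (-0.05 ± 0.20, edgeR adjusted p = 0.883).

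**Figure D3:**
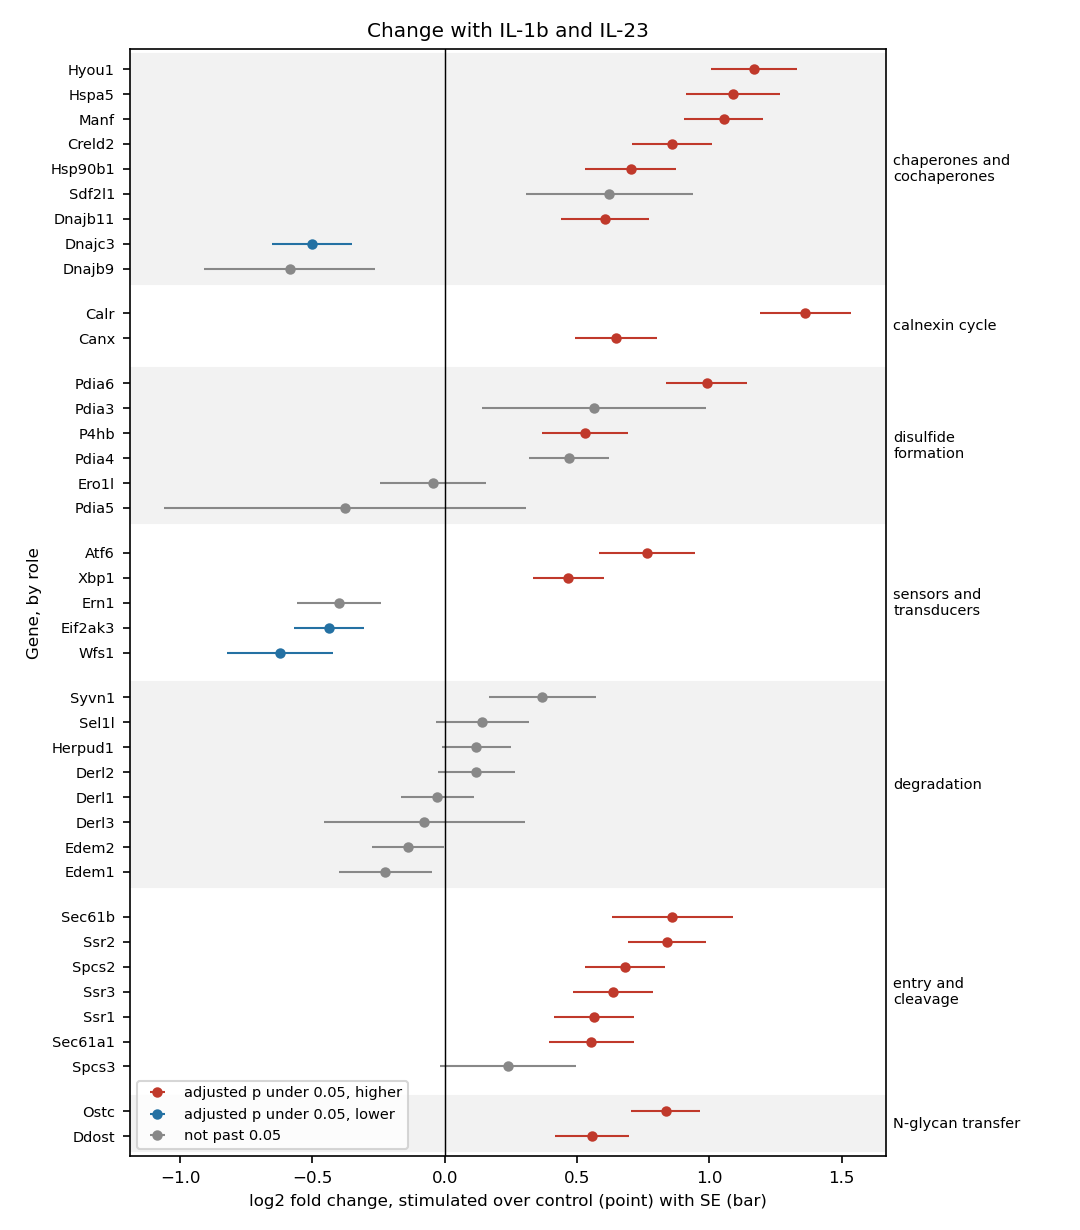
Change of the 39 tested genes as log2 fold change of stimulated over control (point) with its SE (bar), grouped by role, red for higher and blue for lower at an edgeR adjusted p under 0.05 and grey for not past it. Points of the calnexin cycle, of entry and of N-glycan transfer lie to the right of 0, those of the sensors on both sides, and those of degradation around 0.

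The sensors and transducers of the unfolded protein response were split, with 2 higher, 2 lower and 1 not past the test among 5, and a median change of -0.40. Atf6, which encodes the membrane-bound factor that is cut in the Golgi to become active, had 340.1 and 249.9 CPM in stimulated libraries against 179 and 168 CPM in controls. The change of Atf6 was 0.76 ± 0.18 (edgeR adjusted p = 0.0172), and its call ended without stimulated 1 (edgeR adjusted p = 0.0885). Xbp1, whose mRNA IRE1 splices to make an active factor, had 129 and 121 CPM with cytokines and 86.0 and 94.8 CPM without. Its increase was the smallest of those that passed (0.47 ± 0.13, edgeR adjusted p = 0.0339), and counts per gene do not tell its spliced and unspliced forms apart. The Xbp1 call ended without any one of the libraries (edgeR adjusted p = 0.0623 to 0.161) and with total-count scaling (edgeR adjusted p = 0.0581). Eif2ak3, which encodes PERK, fell to 60.0 and 57.1 CPM in stimulated libraries, against 81.8 and 77.0 CPM in controls (-0.44 ± 0.13, edgeR adjusted p = 0.0403). Without each library in turn the Eif2ak3 call ended (edgeR adjusted p = 0.0847 to 0.212). Wfs1, which encodes wolframin, an ER membrane protein known to restrain ATF6 signalling, was scarce and fell to 7.09 and 8.19 CPM, against 11.5 and 11.96 CPM in controls (-0.62 ± 0.20, edgeR adjusted p = 0.0493). For Wfs1 the call ended without each library (edgeR adjusted p = 0.109 to 0.21), with DESeq2 size factors (0.0522), without robust estimation (0.0516) and with no filter beyond 1 count (0.0512), all edgeR adjusted p. Ern1, which encodes IRE1, lay below both controls in both stimulated libraries, at 206 and 203 CPM against 299 and 239 CPM, and did not pass (-0.40 ± 0.16, edgeR adjusted p = 0.0913).

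None of the 8 genes that recognise, move and ubiquitinate misfolded proteins passed the edgeR test, and none had an unadjusted p under 0.05. Their changes ran from -0.22 to 0.37 with a median of 0.05. None of the 8 passed by DESeq2 either. Only Syvn1 passed in any of the 14 alternative settings, with a term for the library number (0.38, edgeR adjusted p = 0.00126). Syvn1, the ubiquitin ligase HRD1 of the ER membrane, had 62.1 and 50.3 CPM in stimulated libraries and 50.6 and 36.4 CPM in controls (0.37 ± 0.20, edgeR adjusted p = 0.201). Its exons overlap those of Mrpl49 on the opposite strand, which had 6215 counts in stimulated and 4901 in control libraries, against 2719 and 2593 for Syvn1. Sel1l, the adaptor of HRD1, had 224 and 172 CPM after stimulation and 194 and 165 CPM in controls (0.14 ± 0.18, edgeR adjusted p = 0.568). Herpud1, a scaffold of the same complex and a known target of the response, had 115 and 124 CPM in stimulated and 109 and 111 CPM in control cells (0.12 ± 0.13, edgeR adjusted p = 0.51). The derlins, which form part of the channel out of the ER, were also near 0: the change was -0.03 ± 0.14 for Derl1, 0.12 ± 0.15 for Derl2 and -0.08 ± 0.38 for Derl3. Derl3 was close to silent, at 1.23 and 1.09 CPM in stimulated and 1.53 and 0.922 CPM in control libraries, and Derl2 overlaps Mis12 on the opposite strand. Edem1 and Edem2, which trim mannose from misfolded glycoproteins, changed by -0.22 ± 0.18 (edgeR adjusted p = 0.362) and -0.14 ± 0.14 (edgeR adjusted p = 0.471).

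Genes of entry into the ER rose for the most part, with 6 of 7 tested members higher, 0 lower and a median change of 0.64. Ssr2, a subunit of the translocon-associated protein complex, had 315 and 292 CPM in the stimulated libraries against 181 and 158 CPM in the control libraries, a change of 0.84 ± 0.15 (edgeR adjusted p = 0.00563). Its partners Ssr3 and Ssr1 changed by 0.64 ± 0.15 (edgeR adjusted p = 0.0183) and 0.56 ± 0.15 (edgeR adjusted p = 0.0265). Ssr3 had 532 and 539 CPM in stimulated cells and 316 and 373 CPM in control cells, and Ssr1 had 198 and 204 CPM in stimulated cells and 123 and 149 CPM in control cells. Sec61a1, the pore-forming subunit of the translocon, had 677 and 554 CPM with cytokines and 422 and 416 CPM without (0.55 ± 0.16, edgeR adjusted p = 0.0351). Sec61b, its small subunit, had 59.4 and 46.3 CPM in stimulated libraries and 34.9 and 23.4 CPM in controls (0.86 ± 0.23, edgeR adjusted p = 0.0281). Spcs2, an accessory subunit of signal peptidase, had 179.5 and 191 CPM after stimulation and 104 and 127 CPM in controls (0.68 ± 0.15, edgeR adjusted p = 0.0138). Spcs3, another subunit of signal peptidase, overlapped between groups, with 229 and 297 CPM in stimulated and 170.2 and 276 CPM in control libraries (0.24 ± 0.26, edgeR adjusted p = 0.513).

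Several of these calls ended when 1 library was left out, in fits that hold fewer libraries. Without stimulated 1, the change was 0.65 for Ssr3 and 0.59 for Ssr1, no smaller than with all libraries. It was 0.40 for Sec61a1 and 0.67 for Sec61b, smaller than with all libraries. Without stimulated 1 the edgeR adjusted p was 0.055 for Ssr3, 0.0695 for Ssr1, 0.199 for Sec61a1 and 0.107 for Sec61b. Without control 1 the edgeR adjusted p was 0.0895 for Ssr3, 0.133 for Ssr1, 0.0871 for Sec61a1 and 0.0617 for Spcs2. Ssr1 also missed the threshold without stimulated 2 (edgeR adjusted p = 0.0725), and Sec61a1 and Sec61b did so without control 2 (edgeR adjusted p = 0.0996 and 0.0669). With total-count scaling the edgeR adjusted p was 0.0512 for Ssr1, 0.051 for Sec61a1 and 0.0516 for Sec61b.

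Srp54a, the copy of the signal recognition particle subunit SRP54 in the list, had 0 counts in all 4 libraries and was not tested. A floor of 3 counts corresponds to 0.112 and 0.13 CPM per total count in stimulated libraries 1 and 2 and to 0.103 and 0.105 CPM in control libraries 1 and 2. Mouse Srp54 genes are near-identical copies whose reads cannot be told apart with certainty. The copy Srp54c had 22.3 ± 0.028 CPM in stimulated and 18.5 ± 3.35 CPM in control cells. Both genes of N-glycan transfer rose. Ostc, a subunit of the oligosaccharyltransferase that attaches glycans at the translocon, had 119 and 117 CPM in stimulated libraries against 68.0 and 63.9 CPM in controls, and its libraries differed little within groups (0.84 ± 0.13, edgeR adjusted p = 0.00371). Ddost, the subunit known as OST48, had 405 and 371 CPM after stimulation and 258 and 269 CPM in controls (0.56 ± 0.14, edgeR adjusted p = 0.0217). Its call ended without stimulated 1, control 1 or control 2 (edgeR adjusted p = 0.114, 0.0812 and 0.0567).

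Read per length, the order of levels was led by the same few genes in both groups of libraries. In stimulated cells the highest mean levels were those of Calr at 731 RPKM, Hspa5 at 443 RPKM, P4hb at 284 RPKM, Ssr2 at 260.2 RPKM and Ddost at 183 RPKM. In control cells these genes had 284, 208, 196, 145 and 124 RPKM. Counted by mean CPM, 30 of the 40 genes reached 100 CPM in stimulated cells and 28 in control cells. The lowest of the tested genes were Derl3, Wfs1 and Dnajb9, at 0.869, 2.14 and 4.86 RPKM in stimulated cells and 0.916, 3.30 and 7.30 RPKM in control cells. Across the 39 tested genes the log2 fold change ran with the mean control RPKM at a Spearman rho of 0.478, a description over genes that share the same libraries and in which the control level enters both measures.

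Libraries of a group differed most for a handful of these genes. Library 2 exceeded library 1 by 1.735-fold in stimulated and 1.94-fold in control cells for Pdia3, and by 2.859-fold and 1.946-fold for Pdia5. For Sdf2l1 the ratios were 1.49 in stimulated and 1.707 in control cells, for Dnajb9 1.649 and 1.563, and for Spcs3 1.296 and 1.622. These 5 genes all overlapped between groups, and none passed the test, which has no term for the library number. They were named for their wide differences within groups, which widen the spread in that test, so this is not a separate observation. Of the 39 genes, 28 differed between libraries in the same direction in both groups, and library 2 was the higher one for 17 genes in stimulated and 28 genes in control cells.

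**Figure D4:**
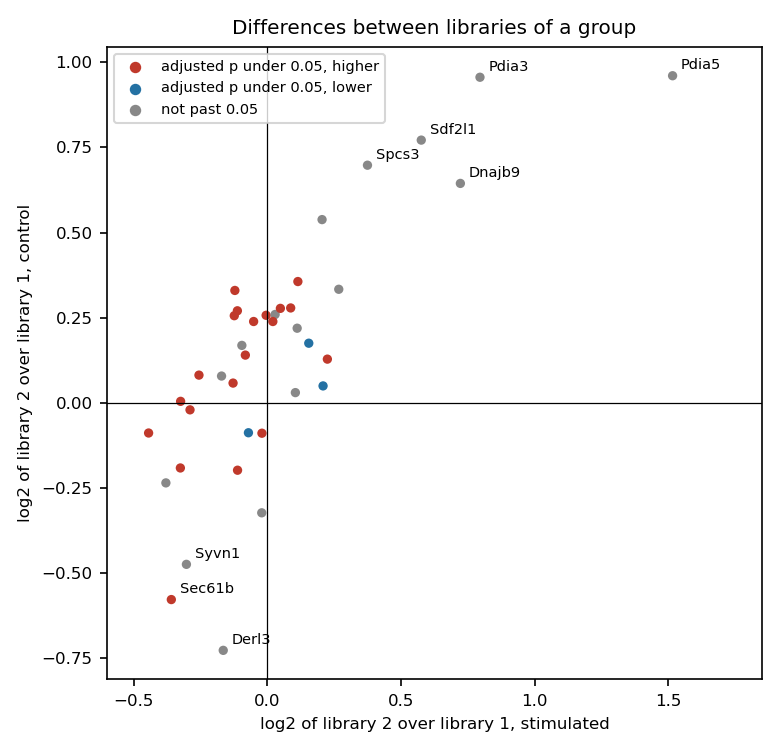
Difference between the libraries of a group for each of the 39 tested genes, as log2 of the library 2 level over the library 1 level, in stimulated cells on the horizontal axis and control cells on the vertical axis, coloured by the edgeR call. Pdia3, Pdia5, Sdf2l1, Dnajb9 and Spcs3 lie in the upper right, higher in library 2 of both groups. All 5 are among the genes that did not pass the test, which has no term for the library number.

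The genes with an ERSE were not all alike in their change. Of the 9 genes with an ERSE, 6 rose, Dnajc3 fell, and Syvn1 and Derl3 did not pass. Their median change was 0.70, against 0.47 for the 21 tested genes whose windows lack it, of which 8 rose. Of the genes with ERSE-II, Dnajb11 rose and Herpud1 did not pass. Hyou1, Manf, Atf6, Sec61a1, Ssr2 and Ostc, which also rose, are not among the 31 genes with a window.

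Other genes of the ER and other chaperones were taken from 10 lists, with 160 genes of which 152 were tested. The lists were written from textbook knowledge, but with earlier results of these data known, so their counts are not independent evidence. Of these, 48 were higher (31.6%), 14 were lower (9.21%) and 90 did not pass, with a median change of 0.29. Among all genes tested, 17.5% were higher and 18.3% lower. In the PERK and ATF4 branch, 10 of 14 rose (71.4%) and 0 fell, with a median of 1.09. Changes in this branch ran from -1.15 to 3.81, and 2 genes had both stimulated libraries below both controls. Atf4, the transcription factor favoured when PERK or a related kinase slows translation, had 824 ± 37.0 CPM in stimulated and 269 ± 2.04 CPM in control cells, a change of 1.61 ± 0.15 (edgeR adjusted p = 0.000631). Trib3, a pseudokinase and target of ATF4, changed by 2.28 ± 0.27 (edgeR adjusted p = 0.0016), and Cebpb, a partner of ATF4, by 1.64 ± 0.18 (edgeR adjusted p = 0.00115). Ppp1r15b, the constitutive phosphatase subunit for eIF2-alpha, had 0.24 ± 0.14 (edgeR adjusted p = 0.238). Of 12 tested members among other regulators of the response 1 rose, the cell death effector Bak1 (0.60 ± 0.13, edgeR adjusted p = 0.0126, and 0.0667 without stimulated 1), while its relative Bax had 0.21 ± 0.13 (edgeR adjusted p = 0.249).

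Chaperones of the cytosol and mitochondria also rose, with 16 of 19 tested members higher (84.2%), 0 lower and a median of 1.24. Their difference from the ER genes was not tested. Hspe1 and Hspd1, which form the mitochondrial chaperonin, changed by 2.20 ± 0.16 (edgeR adjusted p = 0.000302) and 1.99 ± 0.15 (edgeR adjusted p = 0.000383). Hspd1 had 493 ± 2.20 CPM in stimulated and 124 ± 13.8 CPM in control cells. Cct3, a subunit of the cytosolic chaperonin, had 642 ± 51.7 CPM in stimulated and 203 ± 10.9 CPM in control cells (1.66 ± 0.15, edgeR adjusted p = 0.000632). Dnaja2, a cytosolic HSP70 cochaperone, had 0.56 ± 0.19 (edgeR adjusted p = 0.0615) and passed in 4 of the 14 alternative settings.

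In the remaining lists fewer genes passed, and several shares were near those over all genes tested, 17.5% higher and 18.3% lower. Among other translocon, signal recognition particle and signal peptidase genes, 5 of 18 rose (27.8%) and 0 fell, with a median of 0.39. These included Srp19 (1.03 ± 0.15, edgeR adjusted p = 0.00301), Ssr4 (0.96 ± 0.16, edgeR adjusted p = 0.0053) and Srp14 (0.79 ± 0.15, edgeR adjusted p = 0.00761), and the translocon partner Tram1 had -0.13 ± 0.21 (edgeR adjusted p = 0.648). Of 10 other oligosaccharyltransferase genes, 2 rose (20%) and 1 fell (10%). The catalytic subunits of this enzyme went opposite ways, with Stt3a at 0.66 ± 0.15 (edgeR adjusted p = 0.016) and Stt3b at -0.57 ± 0.14 (edgeR adjusted p = 0.0215). Neither call held without stimulated 1 (edgeR adjusted p = 0.0545 and 0.096), and they ended for Stt3a without control 1 (0.0765) and for Stt3b without stimulated 2 (0.0869) or control 2 (0.0781). Krtcap2, a subunit of the same enzyme, changed by 0.75 ± 0.15 (edgeR adjusted p = 0.00897), and its abundant subunit gene Rpn1 had -0.49 ± 0.19 (edgeR adjusted p = 0.0832), which passed in 3 of the 14 alternative settings.

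In the other disulfide and redox genes of the ER, 4 of 16 rose (25%) and 2 fell (12.5%), against 17.5% and 18.3% of all genes tested. The thioredoxin-like Tmx1 changed by 0.82 ± 0.17 (edgeR adjusted p = 0.0115) and its relative Tmx4 by -0.82 ± 0.15 (edgeR adjusted p = 0.00619), while Tmx3 had 0.26 ± 0.22 (edgeR adjusted p = 0.412). Erp29, a redox-inactive member of the isomerase family, changed by 0.67 ± 0.13 (edgeR adjusted p = 0.0083). Genes of glycoprotein folding control gave 2 increases (25%) and 0 decreases among 8. The increases were those of Lman1 (0.72 ± 0.15, edgeR adjusted p = 0.0111) and Mcfd2 (0.57 ± 0.15, edgeR adjusted p = 0.0265), which form a cargo receptor pair. The Mcfd2 call ended without stimulated 1, stimulated 2 or control 1 (edgeR adjusted p = 0.0756, 0.0837 and 0.133) and with total-count scaling (edgeR adjusted p = 0.054). Prkcsh, the beta subunit of glucosidase II, had 0.12 ± 0.16 (edgeR adjusted p = 0.608).

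Among 22 other genes of ER-associated degradation, 2 rose (9.09%) and 5 fell (22.7%), with a median of -0.08. Selenos, a selenoprotein of the retrotranslocation complex, changed by 0.83 ± 0.13 (edgeR adjusted p = 0.00413) and Ube2j2, a ubiquitin-conjugating enzyme of the ER membrane, by 0.65 ± 0.15 (edgeR adjusted p = 0.0158, and 0.0744 without control 1). Edem3, which acts on the same glycans as Edem1, fell (-0.73 ± 0.15, edgeR adjusted p = 0.00915, and 0.0516 without stimulated 1), and Aup1 had 0.12 ± 0.14 (edgeR adjusted p = 0.518). Of 20 genes of COPII transport out of the ER, 4 rose (20%) and 1 fell (5%), against 17.5% and 18.3% of all genes tested. The coat subunit Sec13 changed by 1.02 ± 0.19 (edgeR adjusted p = 0.00664), the GTPase gene Sar1b by 0.73 ± 0.14 (edgeR adjusted p = 0.00733) and Sec24b by -0.82 ± 0.18 (edgeR adjusted p = 0.0119, and 0.0531 without stimulated 2). Surf4, a cargo receptor, had -0.12 ± 0.17 (edgeR adjusted p = 0.608). Of the 13 ER calcium genes, 2 rose (15.4%) and 5 fell (38.5%). The IP3 receptors Itpr2 and Itpr3, which release calcium from the ER, fell most clearly among those named. Itpr2 had 41.2 ± 2.45 CPM in stimulated and 133 ± 7.85 CPM in control cells (-1.69 ± 0.14, edgeR adjusted p = 0.000474). Itpr3 had 237 ± 1.90 CPM in stimulated and 591 ± 0.286 CPM in control cells (-1.32 ± 0.14, edgeR adjusted p = 0.000939). The calcium-binding Rcn1 changed by 1.15 ± 0.19 (edgeR adjusted p = 0.00419) and the ER membrane protein gene Tmbim6 had -0.10 ± 0.15 (edgeR adjusted p = 0.65).

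**Figure D5:**
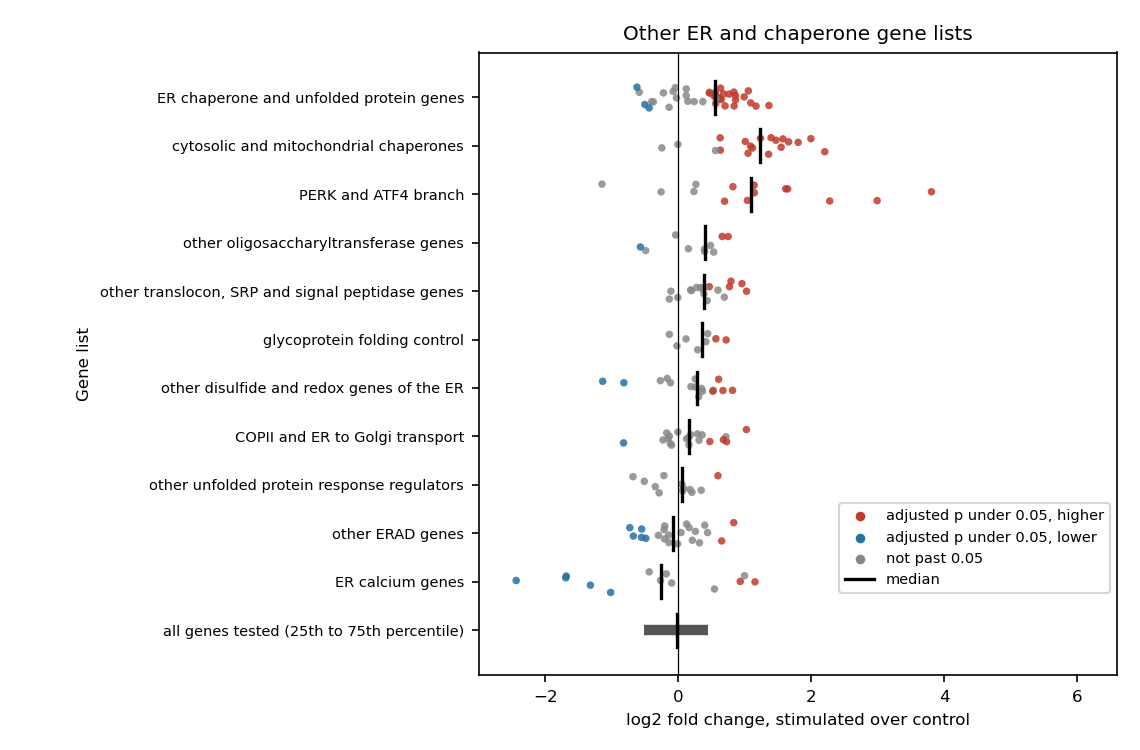
Log2 fold change of stimulated over control for each tested gene of the ER chaperone and unfolded protein genes and of 10 other lists, with one point per gene, black bars at the medians and colours by the edgeR call. The bottom line shows the median and the 25th to 75th percentile of all 13838 genes tested. Medians run from -0.27 for ER calcium genes to 1.24 for cytosolic and mitochondrial chaperones.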

How the data were processed

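The count deposited by the authors for each gene is a raw whole number, and CPM and RPKM stand beside it in each table. The deposited CPM matched the count scaled by the library's sum, and the deposited RPKM matched that CPM over listed length in kilobases (tolerance 1e-06). The submitters' processing notes name STAR, Subread and featureCounts. No source used here gives the build, annotation release or strand setting, so genes with overlapping exons (7 of the 40) are uncertain. Of 41388 identifiers, 40254 matched a GENCODE M21 symbol; all 40 genes matched and overlapped the M21 gene on its strand, 24 with the same start and end.

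Stimulated and control libraries were compared with edgeR 4.0.16 and limma 3.58.1 in R 4.3.3. The deposited counts were used with filterByExpr, TMM, robust quasi-likelihood estimation and treatment as the only term. The SE is the absolute log2 change divided by the square root of F, an approximation. CPM in the text are TMM-scaled, and RPKM derive from them. The common biological coefficient of variation was 18.4%. The code was tested on simulated data.

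All 40 genes are described. Of each other list, the 3 genes past the threshold with the smallest p and the 1 with the highest mean RPKM not past it are named. Genes, lists and alternatives were chosen with earlier results of these data known. Alternatives were total-count, upper-quartile and DESeq2 size-factor scaling, a filter of 1 CPM in 2 libraries or of 1 count over all libraries, DESeq2 1.42.0, limma-voom, no robust estimation, an adjusted p of 0.01, a replicate block and each library left out. Promoter windows came from RefSeq, GRCm38.p6, by symbol. Marker lists covered ILC3, B and plasma, T, myeloid, stromal, and epithelial and endothelial cells. Of the 10 ILC3 markers, 2 were higher and 5 lower in stimulated cells, with summed levels of 3329 and 2610 CPM in stimulated and 3645 and 3416 CPM in control libraries.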

Additional observations from a re-analysis of the deposited data

How the results depend on the processing

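At an adjusted p of 0.01, 8 of the ER chaperone and unfolded protein genes were higher and 0 lower, against 20 and 3 at 0.05, with 31 and 4 of the other ER and chaperone genes and 1244 and 1324 of all genes. With the replicate block, which is not established by the titles and leaves 1 residual degree of freedom, the counts were 25 and 6, 77 and 22, and 3986 and 4000. Its spread is borrowed largely from other genes, and the main fit, with 2 libraries per group, also borrows spread across genes. Deviations of libraries with the same number correlated at a Pearson r of 0.551 over 13838 genes, and the library 2 over 1 differences of the 39 genes at 0.781. The block passed 8 genes that otherwise did not: Pdia4, Ern1 and Syvn1, and the 5 that differed most between libraries, with an edgeR adjusted p = 1.1e-07 for Sdf2l1, 5.24e-06 for Pdia3, 5.86e-05 for Pdia5, 0.00105 for Dnajb9 and 0.0459 for Spcs3. It also passed Dnaja2 (edgeR adjusted p = 1.06e-05), Rpn1 (0.000743) and Tmx3. Without single libraries, 9 to 17 of the 39 genes were higher and 0 to 1 lower, with a median change of 0.43 to 0.60, while 36 to 49 of the other ER and chaperone genes were higher and 5 to 12 lower, and of all genes 1593 to 2001 and 1665 to 2035. Such fits hold fewer libraries, and the lone library of a group is assumed to vary like the others. Total-count scaling gave 14 higher and 3 lower, with 40.9% of all calls higher against 48.8%. The other scalings, filters and tools gave 20 to 22 higher and 2 to 3 lower. None of the 39 genes reversed its direction past the threshold. Of the 23 genes that passed, 8 did so in all 14 settings and 15 lost the call in at least 1. Of 37 other named genes, 18 kept a call in all settings, 9 lost it in at least 1 and 3 gained one.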
